A study of Mus musculus with 12 samples.

Results

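The late step of adipogenesis in control cells was examined here, from mitotic clonal expansion (MCE) to the differentiation stage. The cells were 3T3-L1, a mouse embryonic fibroblast line that can turn into fat cells in culture, carrying a lentiviral control hairpin (shScram) and kept under puromycin selection. At the MCE stage the cells had received MDI, a mixture of the phosphodiesterase inhibitor IBMX, the glucocorticoid dexamethasone and insulin. The libraries of the differentiation stage came from cells that were moved on to insulin medium until they looked like adipocytes, and the labels call them mature adipocytes. Each stage had 2 RNA sequencing libraries, so the comparison rests on 4 of the 12 libraries of the series. The remaining libraries were from shScram preadipocytes and from cells with a hairpin against Fto (shFTO) at the same stages. Of the 55487 genes in the table, 14177 reached a TPM (a transcript level scaled to length and to library total) of 1 in at least 2 of the 4 libraries and were tested.

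In the classical course of 3T3-L1 adipogenesis, growth-arrested preadipocytes re-enter the cell cycle after hormonal induction and then leave it. The early factors CEBPB and CEBPD are known to precede PPARG and CEBPA, which switch on the genes of lipid uptake, triglyceride storage and adipokine secretion. The labels do not say whether the 2 libraries of a stage came from separate cultures, so all p-values measure only the spread between these libraries. In bulk RNA, fewer cells of a type and less RNA per cell cannot be told apart.

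The replicates were close. Over the tested genes, the correlation of log2 values between replicates was 0.991 in the MCE pair and 0.990 in the differentiated pair, and the median absolute log2 difference between replicates was 0.144 and 0.141. Between 21440 and 24018 genes were above 0 in each of the 4 libraries. TPM values do not give the read depth, which is unknown here. One label stood against the rest, since the treatment entry of shScram replicate 1 at the differentiation stage reads as an Fto knockdown, while its title names shScram. Fto, the RNA demethylase targeted in the other line, was at 59.1 and 55.7 TPM in the MCE libraries and at 73.5 and 70.8 TPM in the differentiation libraries, replicate 1 first, against 5.51 to 7.47 TPM in the 6 shFTO libraries. That library was therefore kept in the group its title gives, and counts without it are given below.

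With limma on log2(TPM + 1), 7112 genes (50.2%) differed between the stages at a Benjamini-Hochberg adjusted p under 0.05. Of these, 5211 (36.8% of the genes tested) were higher at the differentiation stage and 1901 (13.4%) were lower. A change of more than 2-fold was called for 1489 genes (10.5%) in the upward direction and for 462 genes (3.26%) in the downward direction. The number of genes called was 4814 without differentiation replicate 1, the library with the conflicting label, and 3804 without differentiation replicate 2. Without the 2 MCE libraries in turn it was 6280 and 4767.

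The direction of small changes depended on how libraries were scaled. The median log2 change of all tested genes was 0.23 on the TPM scale, -0.04 after median-ratio scaling and 0.02 after quantile normalization, and 73.3%, 43.7% and 50.4% of the called genes were higher at the differentiation stage under these 3 scalings. Among changes of more than 2-fold, the upward share was 76.3%, 52.1% and 46.2%. Cytosolic ribosomal proteins took 17.6% and 18.5% of all TPM in the MCE libraries and 14.2% and 13.0% in the differentiation libraries, while genes of the mitochondrial genome took 6.22% and 5.72% and then 7.40% and 9.16%. Their part in the shift was not tested. After median-ratio scaling 20% of the genes tested were called higher and 25.7% lower, and after quantile normalization 20% and 19.7%. Hence, each pathway list with at least 5 measured genes is given below with its median, to be read beside the 0.23 of all genes, and with its counts of higher and lower genes after median-ratio scaling. List counts on the TPM scale are to be read beside the 36.8% higher and 13.4% lower of all genes tested. Those after median-ratio scaling are to be read beside the 20% and 25.7% given above. The words rose and fell are used for genes called on the TPM scale.

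**Figure D1:**
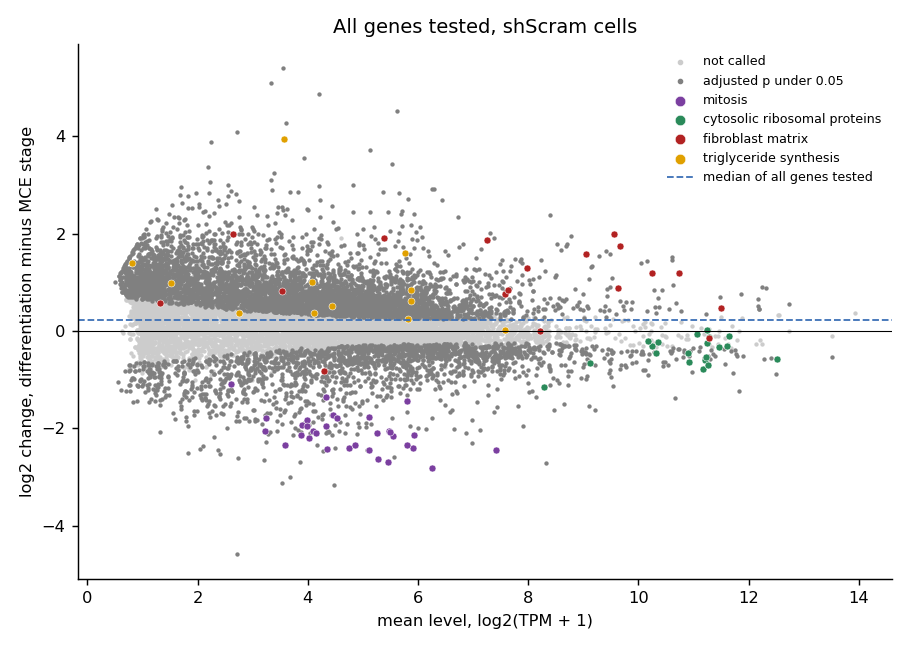
Log2 change from the MCE to the differentiation stage (vertical axis) against the mean level as log2(TPM + 1) (horizontal axis) for the 14177 genes tested in shScram cells, with 4 lists coloured. The dashed line is the median of all genes, 0.23, the mitosis genes lie below 0 without exception, and the cytosolic ribosomal protein genes sit at the right, mostly below 0.

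The steepest rise of a named gene belonged to Adipoq, which encodes the adipokine adiponectin (GRCm38 chr16:23146536-23158028). Its level was 0.817 and 0.791 TPM in the MCE libraries and 77.2 and 72.4 TPM in the differentiation libraries, a log2 change of 5.39 ± 0.13 (SE, adjusted p = 9.42e-07). Clec3b, which encodes tetranectin, was at 0.801 and 0.626 TPM and then at 66.7 and 49.2 TPM (5.09 ± 0.18). The sulfotransferase gene Sult1a1 was at 2.36 and 2.43 TPM and then at 99.9 and 95.8 TPM (4.86 ± 0.12). For all 3 genes, the gap between the stages was far wider than that between replicates. The genes were chosen for large changes without overlap of the stages, so this gap is no separate evidence. The other 9 of the 12 highest changes ran from 4.52 to 3.37 and belonged to Ogn, Thrsp, Aldh1a1, Gpd1, Ggt5, Itgbl1, Cfd, Cd36 and Smoc2. They include the proteoglycan osteoglycin (Ogn), the retinaldehyde dehydrogenase Aldh1a1 and the complement protease adipsin (Cfd).

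At the other end stood Pip, a secreted protein gene (GRCm38 chr6:41847535-41852065), at 28.7 and 32.6 TPM in the MCE libraries and at 0.725 and 0 TPM in the differentiation libraries (log2 change -4.59 ± 0.25). Retnla, a resistin-like hormone gene, was at 62.4 and 68.3 TPM and then at 6.60 and 6.13 TPM (-3.17 ± 0.12). Ly6a, which encodes the stem cell antigen Sca-1, was at 820.1 and 797.7 TPM and then at 134.7 and 113.6 TPM (-2.70 ± 0.11). Id2, an inhibitor of helix-loop-helix factors, was at 36.8 and 34.5 TPM and then at 4.11 and 5.38 TPM (-2.68 ± 0.15). In each of these genes, chosen in the same way, the 2 stages were far apart compared with the gap between replicates. Wfdc12, Ccn5, Prg4 and Prss22 also belonged to the 12 lowest changes, as did the mitotic genes Ube2c, Kif20a and Bub1b. The histone gene H2ac18 was the exception in precision, with 28.4 and 9.11 TPM against 6.62 and 0 TPM (-2.64 ± 0.84, adjusted p = 0.0311). Its call was lost without differentiation replicate 2 (adjusted p = 0.198) and without MCE replicate 1 (adjusted p = 0.129). The strand setting of the counting is not given in the sources used here, and the exons of 64 of the 188 genes chosen for naming overlap those of another gene in the GENCODE M21 annotation. Their values may include reads of that neighbour and are uncertain. Among the genes with values given here these are Wfdc12, Ube2c, Kif20a, H2ac18, Prg4, Sult1a1, Gpd1, Cebpa, Cebpb, Cebpd, Srebf1, Ccna2, Cdkn1a, Axin2, Acsl1, Agpat2, Lipe, Plin4, Scd2, Rarres2, Irs1, Bcat1, Bcat2, Idi1, Pkm, Ccnd1, E2f7, E2f8, Nop56, Col3a1, Fn1, Thbs1, Itga7, Lama2, Tagln, Pdgfra, Cd34, Wnt5a, C1s1, Fto, Mettl3, mt-Co1 and mt-Atp6.

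**Figure D2:**
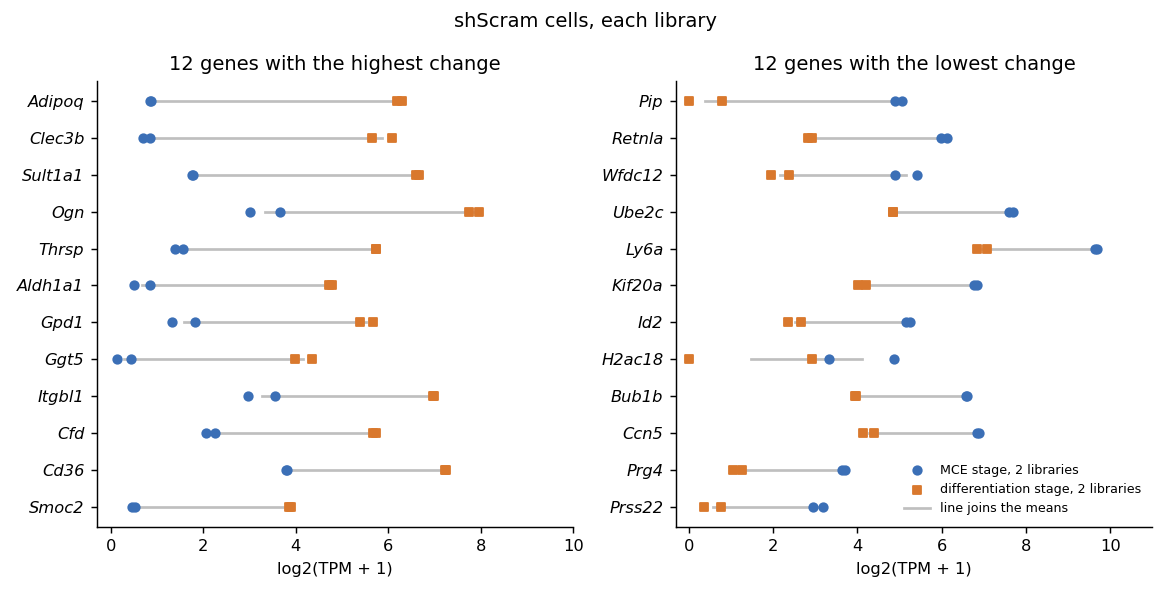
Level as log2(TPM + 1) (horizontal axis) of the 12 genes with the highest (left) and the 12 with the lowest (right) change, in each of the 2 MCE libraries (circles) and the 2 differentiation libraries (squares) of shScram cells, with lines joining the stage means. The choice of genes required that the stages not overlap, and H2ac18 shows the widest spread between replicates.

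The label of the differentiation libraries was next checked against adipocyte markers. The summed level of 12 markers was 425 and 419 TPM in the MCE libraries and 1655 and 1638 TPM in the differentiation libraries, and each marker reached 1 TPM in at least 1 library. Of the 11 markers that passed the filter, 10 rose and Cebpa fell (8 and 1 after median-ratio scaling). Without differentiation replicate 1, 9 rose and 1 fell. The insulin-responsive glucose transporter Slc2a4, a late adipocyte gene, did not pass the filter, at 0.115 and 0 TPM and then 0.896 and 1.18 TPM.

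Markers of fibroblasts stayed high in the same libraries. Their summed level over 10 genes was 12111 and 11445 TPM before and 15476 and 14852 TPM after differentiation, and 6 of the 10 rose and 4 were not called (5 higher and 2 lower after median-ratio scaling). Among 10 skeletal muscle markers 5 were at 0 in all 4 libraries, and the sum of 7.10 and 7.53 TPM, then 33.8 and 48.9 TPM, came mostly from troponin T3 (Tnnt3, at 27.0 and 40.4 TPM after differentiation). The osteoblast sum was 976 and 944 TPM and then 633 and 808 TPM, nearly all from Spp1, with Bglap listed at 0. The 8 chondrocyte markers summed to between 56.2 and 65.4 TPM in each library, mostly from Sox9. The summed levels were at most 4.10 TPM in any library for 8 macrophage markers, 0.961 TPM for 8 endothelial markers and 2.05 TPM for 8 epithelial markers.

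**Figure D3:**
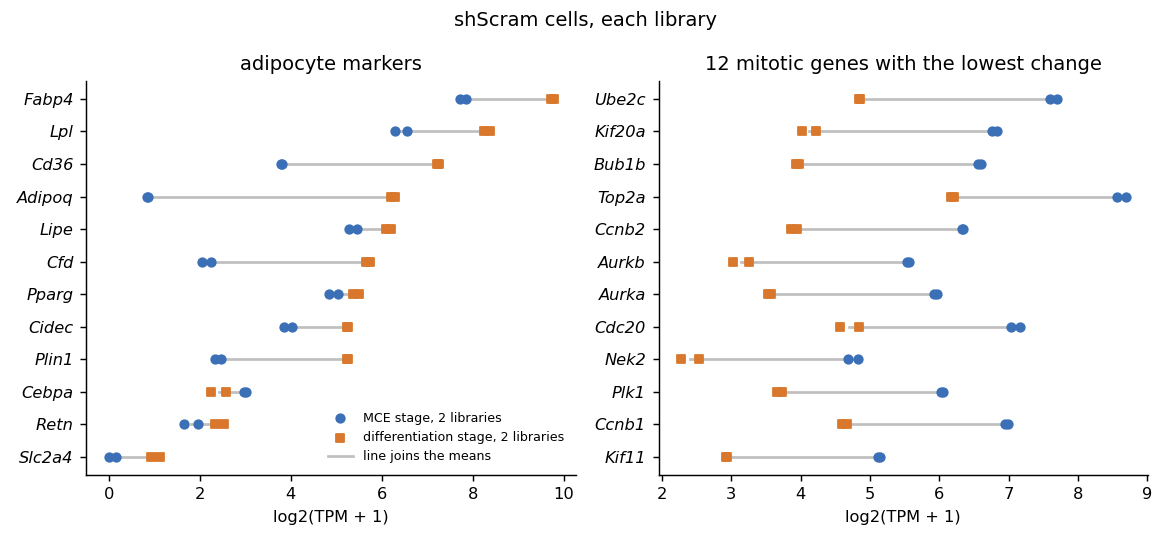
Level as log2(TPM + 1) (horizontal axis) of 12 adipocyte markers (left) and of the 12 mitotic genes with the lowest change (right) in each MCE library (circles) and each differentiation library (squares) of shScram cells, with lines joining the stage means. Fabp4 is the marker with the highest level and Slc2a4 that with the lowest, Cebpa alone among the markers moves to the left, and the mitotic genes move to the left by more than 2 log2 units.

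Next, the transcription factors of adipogenesis were examined. Of 17 measured factors, 9 rose and 4 fell, with a median of 0.45 (4 and 5 after median-ratio scaling). Pparg, the nuclear receptor at the centre of the fat cell programme, was at 32.1 and 27.9 TPM and then at 40.3 and 44.6 TPM, a log2 change of 0.49 ± 0.11 (adjusted p = 0.00924). After median-ratio scaling this change was 0.20 and was not called, and the call was also lost without differentiation replicate 2 (adjusted p = 0.0843) and without MCE replicate 2 (adjusted p = 0.0593). Cebpb, the early factor, fell from 676 and 701 TPM to 388 and 323 TPM (-0.96 ± 0.11, adjusted p = 0.000417). Cebpd stood at 166 and 162 TPM and then at 159 and 153 TPM and was not called (-0.07 ± 0.09).

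Cebpa, which in the textbook order acts with PPARG, was lower at the later stage, at 7.13 and 6.88 TPM and then 5.01 and 3.77 TPM (-0.58 ± 0.18, adjusted p = 0.0261). That call was lost without differentiation replicate 2 (adjusted p = 0.156) and without either MCE replicate (adjusted p = 0.0786 and 0.0746). The lipogenic factor Srebf1 was not called, at 73.2 and 65.2 TPM and then 85.9 and 78.0 TPM. Klf15 rose from 0.462 and 0.501 TPM to 2.35 and 3.32 TPM (1.36 ± 0.23), and Zfp467 rose from 0.223 TPM in both MCE libraries to 2.05 and 1.60 TPM (1.20 ± 0.23).

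Genes listed here as repressors of adipogenesis moved in both directions. Of 17 measured, 7 rose and 5 fell, and their median of 0.05 lay below that of all genes and turned to -0.23 after median-ratio scaling, with 4 higher and 7 lower, and to -0.10 after quantile normalization. The inhibitors of helix-loop-helix factors fell together. Id1 was at 247 and 239 TPM and then at 101.6 and 93.1 TPM (-1.31 ± 0.09), and Id3 was at 229 and 213 TPM and then at 91.2 and 69.4 TPM (-1.46 ± 0.13), beside the fall of Id2 given above. Dlk1, the preadipocyte factor Pref-1, remained abundant at 1182 and 1106 TPM and then at 888 and 822 TPM (-0.42 ± 0.10). The call on Dlk1 was lost without differentiation replicate 2 (adjusted p = 0.0690) and without MCE replicate 1 (adjusted p = 0.0742).

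Fatty acids enter the adipocyte through lipoprotein lipase, carriers and binding proteins. Of 13 measured genes of uptake and binding, 6 rose and 1 fell, and the median of 0.24 matched that of all genes and turned to -0.05 after median-ratio scaling, where 5 were higher and 4 lower. The fatty acid translocase Cd36 (GRCm38 chr5:17781690-17888801) was at 13.0 and 12.8 TPM and then at 148 and 151 TPM (3.44 ± 0.09, adjusted p = 1.48e-06). Fabp4, the adipocyte fatty acid binding protein, was already at 211 and 231 TPM at the MCE stage and reached 876 and 836 TPM (1.95 ± 0.10). Lpl was at 92.4 and 77.2 TPM and then at 303 and 333 TPM (1.90 ± 0.11), and the transporter Slc27a1 was at 14.8 and 15.7 TPM and then at 57.7 and 54.4 TPM (1.81 ± 0.11). These 4 genes and the acyl-CoA synthetase Acsl1 were also called higher after median-ratio scaling.

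The enzymes of triglyceride synthesis rose as a group by count. Of 12 measured, 9 rose and the other 3 were not called, with a median of 0.73 (7 rose after median-ratio scaling). Gpd1, which makes glycerol 3-phosphate for the backbone, was at 2.54 and 1.502 TPM and then at 49.9 and 40.6 TPM (3.95 ± 0.19, adjusted p = 1.05e-05). Agpat2, the acyltransferase that adds the next fatty acid, was at 31.1 and 29.1 TPM and then at 101.9 and 84.5 TPM (1.59 ± 0.12). The glycerol channel Aqp7 stayed low, at 0.146 and 0 TPM and then 2.39 and 1.35 TPM (1.40 ± 0.27). Dgat2, which completes the triglyceride, was not called, at 4.88 and 5.03 TPM and then 6.79 and 6.50 TPM. Pck1, the enzyme of glyceroneogenesis, did not pass the filter and was at most 0.232 TPM in any of the 4 libraries.

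Lipid droplet coat and lipolysis genes showed a similar count. Of 12 measured, 8 rose and 4 were not called, with a median of 0.48 (5 higher and 2 lower after median-ratio scaling). Plin1, the perilipin that guards the droplet against lipases, was at 4.02 and 4.53 TPM and then at 36.9 and 37.1 TPM (2.85 ± 0.13, adjusted p = 7.50e-06). G0s2, an inhibitor of the triglyceride lipase, was at 1.55 and 1.80 TPM and then at 15.8 and 16.3 TPM (2.67 ± 0.16). Plin4 and the droplet fusion factor Cidec rose by 1.70 and 1.31, and the hormone-sensitive lipase Lipe was at 43.0 and 38.03 TPM and then at 72.6 and 67.7 TPM (0.78 ± 0.10). The triglyceride lipase Pnpla2 (ATGL) rose by 0.52 on the TPM scale, and its change of 0.23 after median-ratio scaling was not called.

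De novo lipogenesis had more genes lower than higher. Of 18 measured genes, 2 rose and 9 fell, with a median of -0.28 (1 and 12 after median-ratio scaling). Acly, which makes cytosolic acetyl-CoA, was at 177 and 170 TPM and then at 110 and 105 TPM (-0.69 ± 0.09, adjusted p = 0.000644), and the desaturase Scd2 was at 350 and 319 TPM and then at 231 and 228 TPM (-0.54 ± 0.09). The fatty acid synthase gene Fasn was at 175 and 151 TPM and then at 140 and 121 TPM (-0.32 ± 0.11, adjusted p = 0.0455). Its call was lost without either differentiation replicate (adjusted p = 0.0581 and 0.249) and without MCE replicate 1 (adjusted p = 0.236). Against this background stood Thrsp, the lipogenesis-associated Spot 14 gene, which was at 1.63 and 1.93 TPM and then at 52.5 and 52.0 TPM (4.26 ± 0.13).

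Cholesterol synthesis genes were lower at the differentiation stage. Of 23 measured, 19 fell and the other 4 were not called, with a median of -0.67 (20 fell after median-ratio scaling and 19 after quantile normalization). Idi1, the isomerase that makes the isoprenoid building block, was at 68.7 and 57.6 TPM and then at 20.6 and 21.6 TPM (-1.53 ± 0.12, adjusted p = 6.64e-05). The squalene epoxidase Sqle was at 69.9 and 73.6 TPM and then at 27.4 and 27.1 TPM (-1.36 ± 0.10). In neither gene did the stages overlap, which was also true of genes that were not called, such as Srebf1 and Fn1.

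Glycolysis had 2 of 16 measured genes higher and 8 lower, with a median of -0.28 (1 and 10 after median-ratio scaling). The pyruvate kinase gene Pkm was at 2505 and 2842 TPM and then at 1572 and 1425 TPM (-0.83 ± 0.12), and the lactate dehydrogenase gene Ldha was at 1831 and 1971 TPM and then at 1218 and 1116 TPM (-0.70 ± 0.11). Hexokinase 2 (Hk2) was not called, with 21.3 and 23.8 TPM and then 23.1 and 22.8 TPM.

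Oxidative pathways differed from one another. Of 20 measured genes of fatty acid oxidation, 16 rose and the other 4 were not called, with a median of 0.40 (8 rose after median-ratio scaling). Catalase (Cat), a peroxisomal enzyme, was at 66.8 and 53.1 TPM and then at 225 and 191 TPM (1.78 ± 0.13, adjusted p = 6.12e-05). Cpt1a, which commits fatty acids to the mitochondrion, was at 29.5 and 27.2 TPM and then at 53.7 and 54.7 TPM (0.91 ± 0.10), and Pex11a, a peroxisome division factor, rose by 1.29. Branched-chain amino acid breakdown had 15 of 21 members higher and 1 lower, with a median of 0.56 (10 and 2 after median-ratio scaling). The 2 transaminases of that pathway parted. The mitochondrial Bcat2 was at 39.5 and 40.8 TPM and then at 89.5 and 82.1 TPM (1.07 ± 0.10), while the cytosolic Bcat1 was at 64.0 and 66.3 TPM and then at 26.0 and 32.2 TPM (-1.14 ± 0.12).

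The citric acid cycle showed little net movement, with 6 of 20 genes higher and 2 lower and a median of 0.12 that turned to -0.18 after median-ratio scaling, where 6 were lower and the rest were not called. Of 24 measured nuclear genes of the respiratory chain, 1 rose, 7 fell and the other 16 were not called, with a median of -0.19 (0 higher and 18 lower after median-ratio scaling, and 0 and 5 after quantile normalization). Ndufa4 was at 486 and 544 TPM and then at 338 and 299 TPM (-0.69 ± 0.11). By contrast, 7 of the 13 protein genes of the mitochondrial genome rose and the other 6 were not called, with a median of 0.37 (1 rose after median-ratio scaling). The subunit gene mt-Atp6 was at 3762 and 3315 TPM and then at 5881 and 7363 TPM (0.90 ± 0.16), and mt-Co1 was at 14835 and 12766 TPM and then at 15676 and 20092 TPM and was not called. Nuclear copies of mitochondrial sequence are listed as genes in the same table, so the split of reads among these copies is uncertain. Ucp1, the uncoupling protein of brown fat, was listed at 0 in all 4 libraries, and only 3 of 12 thermogenic genes passed the filter, with changes between -0.51 and 0.56 that were not called on the TPM scale or after median-ratio scaling. After quantile normalization 1 of these 3 genes was called lower.

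Secreted factors and the insulin pathway were then compared. Of 12 measured adipokine genes, 8 rose and 4 fell, with a median of 0.67 (6 and 4 after median-ratio scaling). Beside Adipoq and Cfd, the chemerin gene Rarres2 was at 18.1 and 17.5 TPM and then at 131 and 135 TPM (2.83 ± 0.09). Angiotensinogen (Agt) was at 440.1 and 391.7 TPM and then at 1308 and 1182 TPM (1.58 ± 0.11). Leptin (Lep) did not pass the filter. Insulin signalling and glucose uptake had 7 of 16 genes higher and 2 lower, beside 36.8% and 13.4% of all genes tested. Its median was 0.24 and turned to -0.04 after median-ratio scaling (5 and 5). The insulin receptor substrate Irs1 was at 4.63 and 4.75 TPM and then at 14.1 and 14.3 TPM (1.42 ± 0.14), and the glucose transporter regulator Trarg1 rose by 1.23. The other substrate gene Irs2 fell, from 38.6 and 36.1 TPM to 21.7 and 22.5 TPM (-0.73).

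Genes of the cell cycle made up the most uniform downward movement. All 32 measured genes of mitosis fell, also under both other scalings and without differentiation replicate 1, with changes between -2.80 and -1.09 and a median of -2.09, against 13.4% of all tested genes lower. Ube2c, the ubiquitin-conjugating enzyme of the anaphase-promoting complex (GRCm38 chr2:164769898-164778822), was at 207 and 193 TPM and then at 27.9 and 27.7 TPM (-2.80 ± 0.09, adjusted p = 3.13e-06). The checkpoint kinase gene Bub1b was at 96.1 and 93.7 TPM and then at 14.3 and 14.7 TPM (-2.63 ± 0.10). Ccnb1, the mitotic cyclin B1, was at 126 and 123 TPM and then at 24.5 and 23.1 TPM (-2.34 ± 0.09). Cdk1, its kinase partner, was less even between replicates, at 86.5 and 87.7 TPM and then at 27.9 and 14.5 TPM (-2.06 ± 0.24). The proliferation marker Mki67 was at 45.5 and 37.9 TPM and then at 10.3 and 12.7 TPM (-1.78 ± 0.14).

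DNA replication genes fell by less. Of 28 measured, 25 fell and the other 3 were not called, with a median of -1.01 (26 fell under both other scalings). The helicase subunit Mcm5 was at 55.7 and 63.6 TPM and then at 14.7 and 14.1 TPM (-1.98 ± 0.11), and the ribonucleotide reductase subunit Rrm2 was at 56.4 and 57.4 TPM and then at 16.9 and 12.7 TPM (-1.89 ± 0.14). The replication clamp gene Pcna was at 180.4 and 160.0 TPM and then at 97.6 and 81.9 TPM (-0.92 ± 0.11). Of 19 genes of the G1 phase, 3 rose, 5 fell and 11 were not called, with a median of -0.20. After median-ratio scaling 1 was higher and 12 were lower, with a median of -0.46, and after quantile normalization 2 and 9. Ccnd1, cyclin D1, was not called at 185 and 168 TPM and then 197 and 187 TPM, whereas the repressors E2f8 and E2f7 fell by 1.23 and 1.01. Among 14 CDK inhibitors and related genes, 4 rose and 3 fell, with a median of 0.13 that turned to -0.16 after median-ratio scaling (2 and 5). The p27 gene Cdkn1b was at 81.0 and 78.3 TPM and then at 77.1 and 84.5 TPM and was not called.

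Promoters of these cell cycle genes are known for a few short elements, and the sequence upstream of 5 of them is shown because both cell cycle lists fell. The CCAAT box is bound by NF-Y, the CHR element (TTTGAA) by the DREAM and MuvB complexes, and the E2F site (searched as TTTCCCGC or TTTGGCGC) by E2F factors. Each stretch covers the 150 bases before a RefSeq transcription start on GRCm38.p6, 5′ to 3′ on the gene's strand. Shown are the 3 mitosis and the 2 replication genes with the lowest changes among those searched that held both elements in this stretch. The coordinates are chr2:164769779-164769928 on the plus strand for Ube2c, chr11:99024190-99024339 on the minus strand for Top2a, chr4:118437344-118437493 on the minus strand for Cdc20, chr8:75109359-75109508 on the plus strand for Mcm5 and chr1:128359706-128359855 on the minus strand for Mcm6. Capitals mark the CCAAT box in each, with the CHR element in the first 3 genes and the E2F site in the last 2, on either strand.
Ube2c: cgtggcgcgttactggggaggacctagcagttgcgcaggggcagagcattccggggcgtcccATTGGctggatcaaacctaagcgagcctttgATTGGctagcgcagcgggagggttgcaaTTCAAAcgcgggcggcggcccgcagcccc
Top2a: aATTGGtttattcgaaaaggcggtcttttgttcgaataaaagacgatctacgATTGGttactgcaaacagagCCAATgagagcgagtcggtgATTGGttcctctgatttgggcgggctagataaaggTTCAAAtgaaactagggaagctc
Cdc20: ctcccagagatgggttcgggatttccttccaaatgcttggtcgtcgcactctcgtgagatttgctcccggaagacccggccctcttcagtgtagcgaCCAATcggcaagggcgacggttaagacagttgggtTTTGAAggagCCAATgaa
Mcm5: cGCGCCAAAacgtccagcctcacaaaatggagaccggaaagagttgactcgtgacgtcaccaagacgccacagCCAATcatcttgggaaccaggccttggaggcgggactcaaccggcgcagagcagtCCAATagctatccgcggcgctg
Mcm6: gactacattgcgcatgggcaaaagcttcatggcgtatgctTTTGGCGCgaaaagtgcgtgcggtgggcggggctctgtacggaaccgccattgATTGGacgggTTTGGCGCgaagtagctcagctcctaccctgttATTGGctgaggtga

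The stretch of Top2a, the DNA topoisomerase of mitosis, held 4 CCAAT boxes and those of the other 4 genes held 2 each. Top2a was at 413 and 379.7 TPM and then at 71.1 and 73.4 TPM (-2.44 ± 0.09), the anaphase activator Cdc20 was at 129.7 and 142 TPM and then at 27.7 and 22.7 TPM (-2.39 ± 0.12), and the helicase subunit Mcm6 was at 56.7 and 59.3 TPM and then at 25.2 and 30.6 TPM (-1.04 ± 0.12). Over windows from 250 bases before to 50 bases after a start, the CHR element was present in 20 of 28 windows of 27 mitosis genes (71.4%), against 17.9% of all 32851 windows of the RefSeq table and 12.3% of the windows of tested genes. A CCAAT box was present in 78.6% of the mitosis windows, in 37.4% of all windows and in 38.8% of those of tested genes. The E2F site was in 9 of 27 windows of 23 replication genes (33.3%), against 1.56% of all windows and 2.87% of those of tested genes, and 0 of the 28 mitosis windows held these letters. Among the genes that fell by more than 2-fold, which include genes of both lists, 33.9% of windows held the CHR element, compared with 13.3% for the genes that rose by more than 2-fold. Windows were found for only 307 of 461 gene symbols of the first set and 822 of 1489 of the second. For the tested genes they were found for 9737 of 14156 symbols, so these shares cover only part of each set. The direct repeat of AGGTCA with 1 base between the copies, the element of PPARG with RXR, was in 13 of all windows and in 0 of the 22 windows of lipid droplet genes, so that search had little to find. The C/EBP core TTGCNNAA was in 10.8% of all windows, in 8.49% of those of tested genes, in 9.09% of the lipid droplet windows and in 6.25% of the 16 windows of fatty acid uptake genes. These shares describe letters in fixed windows, not bound sites.

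Growth-related genes were examined next. Of 20 measured genes of ribosome biogenesis, 9 fell and the other 11 were not called, with a median of -0.28 (15 fell after median-ratio scaling). The box C/D factor Nop56 was at 209.7 and 218 TPM and then at 119.7 and 122 TPM (-0.82 ± 0.09). Of 20 cytosolic ribosomal protein genes, 11 fell and the other 9 were not called, with a median of -0.38 (17 fell after median-ratio scaling and 7 after quantile normalization). Rpl8 was at 2877 and 3118 TPM and then at 1934 and 1573 TPM (-0.78 ± 0.14). Pseudogene copies of several of these genes are listed separately at high TPM, so the split of reads between a gene and its copies is uncertain.

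The extracellular matrix of the fibroblast rose at the differentiation stage. Of 18 measured genes, 14 rose and 1 fell, with a median of 1.04 (13 and 2 after median-ratio scaling). Postn, which encodes the matrix protein periostin, was at 439 and 319 TPM and then at 1435 and 1534 TPM (1.98 ± 0.15, adjusted p = 6.58e-05). The collagen I chain gene Col1a1 was at 321 and 294 TPM and then at 945 and 884 TPM (1.57 ± 0.10), and Col3a1 was at 859 and 747 TPM and then at 1863 and 1814 TPM (1.20 ± 0.11). Thrombospondin 1 (Thbs1) and the proteoglycan lumican (Lum) rose by 1.91 and 1.99. Fibronectin (Fn1) was not called, at 2767 and 2455 TPM and then 2386 and 2313 TPM.

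Basement membrane and integrin genes had 14 of 20 members higher and 1 lower, with a median of 0.43 (8 and 5 after median-ratio scaling). The laminin-binding integrin Itga7 was at 0.881 and 0.759 TPM and then at 5.43 and 5.46 TPM (1.82 ± 0.19), and the laminin chain Lama2 rose by 1.11 from 0.144 TPM in both MCE libraries. Of 15 actin and contractile genes, 9 rose and the other 6 were not called, with a median of 0.43 (5 higher and 3 lower after median-ratio scaling). The smooth muscle actin gene Acta2 was at 8.93 and 6.90 TPM and then at 23.3 and 30.5 TPM (1.64 ± 0.17). Its level in the 2 shScram preadipocyte libraries was 307 and 453 TPM. Tagln, another smooth muscle gene, was not called at 1.36 and 0.741 TPM and then 0.761 and 1.04 TPM. Caveolae, the membrane pits abundant in fat cells, had 5 of 8 genes higher and 1 lower, with a median of 0.46 (2 and 2 after median-ratio scaling). Cavin2 was at 17.2 and 15.2 TPM and then at 48.5 and 53.8 TPM (1.60 ± 0.12).

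The list of progenitor surface markers also held genes of other kinds, such as Ccn5. Of its 14 measured genes, 6 rose and 3 fell, beside 36.8% and 13.4% of all genes tested. The list median was 0.29, near the 0.23 of all genes. After median-ratio scaling 2 were higher and 3 lower, beside 20% and 25.7% of all genes. Ly6a fell as described above, and the matricellular gene Ccn5, at 113 and 117 TPM and then 20.2 and 16.5 TPM, fell by 2.58. Pdgfra, the receptor that marks adipose progenitors and fibroblasts, rose from 194 and 166 TPM to 358 and 382 TPM (1.04 ± 0.10). Cd34 stayed near the filter and was not called.

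**Figure D4:**
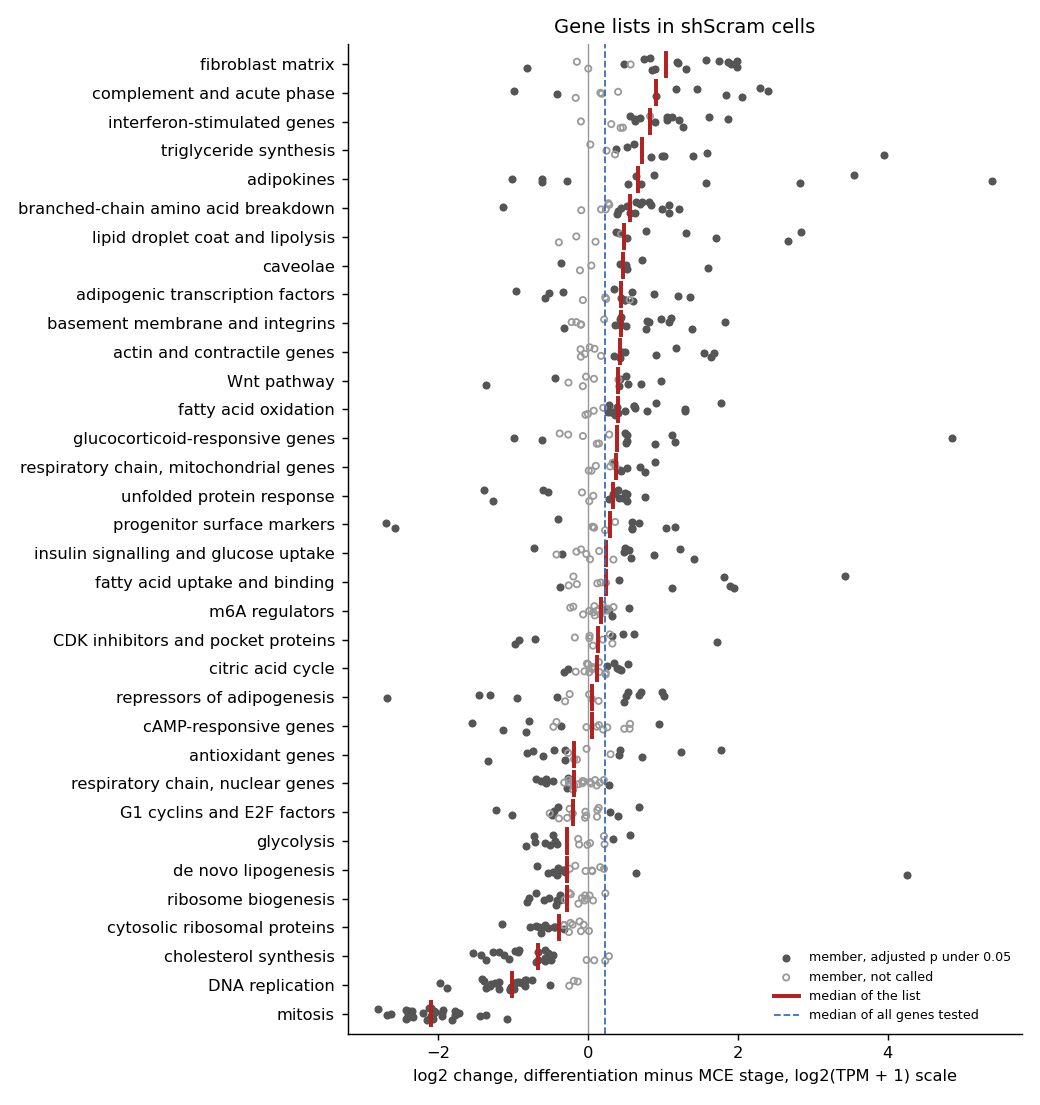
Log2 change from the MCE to the differentiation stage (horizontal axis) for each measured member of 34 gene lists in shScram cells, with filled points for genes called, open points for genes not called, a red bar at the median of each list and a dashed line at the median of all genes, 0.23. Fibroblast matrix has the highest list median, 1.04, and mitosis the lowest, -2.09.

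Genes that respond to the inducing hormones were examined because dexamethasone and IBMX belong to the first medium only. Of 16 measured glucocorticoid-responsive genes, 8 rose and 2 fell, with a median of 0.39 (4 and 5 after median-ratio scaling). Pdk4, which spares glucose by blocking pyruvate oxidation, was at 41.2 and 38.9 TPM and then at 88.9 and 91.8 TPM (1.16 ± 0.09). Fkbp5 and Tsc22d3, classical targets of the receptor, rose by 0.51 and 0.52 on the TPM scale, and after median-ratio scaling their changes of 0.22 and 0.23 were not called. Of 16 cAMP-responsive genes, 1 rose and 5 fell, with a median of 0.05 that turned to -0.24 after median-ratio scaling (1 and 6) and to -0.20 after quantile normalization (1 and 7). The phosphodiesterase gene Pde4b was at 42.4 and 43.6 TPM and then at 15.8 and 12.5 TPM (-1.55 ± 0.13), Pde4d fell by 0.83, and Pde4a was at 7.18 and 6.84 TPM and then at 15.1 and 13.9 TPM (0.95 ± 0.14).

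In the Wnt pathway, 6 of 13 measured genes rose and 2 fell, with a median of 0.40 (2 and 5 after median-ratio scaling). Wnt4 was at 15.8 and 15.5 TPM and then at 5.86 and 5.11 TPM (-1.36 ± 0.14), while Wnt5a was at 9.86 and 9.04 TPM and then at 16.0 TPM in both libraries (0.70 ± 0.13). Axin2, a common readout of the canonical branch, did not pass the filter, with at most 0.0918 TPM.

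Complement and acute phase genes had a high list median. Of 13 measured, 7 rose and 2 fell, with a median of 0.91 (7 and 3 after median-ratio scaling). The proteases of the C1 complex, C1s1 and C1ra, were at 25.7 and 25.3 TPM and at 22.3 and 19.6 TPM at the MCE stage. They reached 134 and 145 TPM (2.41 ± 0.09) and 91.0 and 90.0 TPM (2.06 ± 0.10). C3, the central complement protein, was at 984 and 903 TPM and then at 2653 and 2540 TPM (1.46 ± 0.11), and haptoglobin (Hp) was at 22.1 and 28.6 TPM and then at 95.2 and 91.1 TPM (1.85 ± 0.13). Of 17 interferon-stimulated genes, 12 rose and the other 5 were not called, with a median of 0.83 (10 rose after median-ratio scaling). Ifit3 was uneven between replicates, at 1.68 and 1.72 TPM and then 6.15 and 12.7 TPM (1.87 ± 0.29). In the shScram preadipocyte libraries Ifit3 stood at 587 and 498 TPM. Isg15 was not called, at 15.4 and 17.2 TPM and then 13.3 and 17.3 TPM.

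Stress genes were examined in 2 lists. In the unfolded protein response list, 10 of 17 genes rose and 4 fell, with a median of 0.33 (1 and 4 after median-ratio scaling). The endoplasmic reticulum gene Herpud1 was at 50.9 and 49.4 TPM and then at 81.9 and 89.5 TPM (0.76 ± 0.09). The glutathione-degrading enzyme gene Chac1 and the pseudokinase gene Trib3, both known targets of ATF4, fell by 1.39 and 1.27. Antioxidant genes had 5 of 17 members higher and 7 lower, with a median of -0.19 (3 and 11 after median-ratio scaling). Gclc, the catalytic subunit of glutathione synthesis, was at 56.3 and 62.6 TPM and then at 21.3 and 24.6 TPM (-1.34 ± 0.11), and the quinone reductase gene Nqo1 fell by 0.74. Gstm1, a glutathione transferase, was at 33.7 and 32.1 TPM and then at 74.9 and 83.3 TPM (1.24 ± 0.10).

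Regulators of m6A, the RNA mark that FTO removes, gave few calls. Of 18 measured, 3 rose and the other 15 were not called, with a median of 0.17 that turned to -0.11 after median-ratio scaling and to -0.05 after quantile normalization. Under these scalings 0 were higher, and 3 and 2 were lower. Fto itself rose by 0.33 ± 0.09 on the TPM scale (adjusted p = 0.0202), and after median-ratio scaling its change of 0.04 was not called. The call on Fto was also lost without either differentiation replicate (adjusted p = 0.0936 and 0.0720) and without MCE replicate 2 (adjusted p = 0.113). The methyltransferase Mettl3 stood at 18.8 and 19.8 TPM and then at 21.5 and 19.8 TPM, and the demethylase Alkbh5 at 63.1 and 59.9 TPM and then at 63.0 and 54.6 TPM, and neither was called.

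The same step in shFTO cells was used for contrast, with the difference between the lines tested as an interaction in a limma fit of 8 libraries. The late change differed between the lines for 2632 of 14177 genes (18.6%), of which 1170 had the higher change in shFTO cells and 1462 the lower. Without 1 of the 4 shFTO libraries in turn, the count was 1402 and 1669 (differentiation replicates 1 and 2) and 1324 and 1304 (MCE replicates 1 and 2). Of the 32 mitosis genes, 28 differed, all with the higher change in shFTO cells, where the list median was -0.84 compared with -2.09 in shScram cells. For DNA replication 12 of 28 genes differed, all with the lower change in shFTO cells, with list medians of -1.36 in shFTO and -1.01 in shScram cells. Among them, Pcna was at 313 and 329 TPM and then at 95.0 and 88.7 TPM in shFTO cells. Its shScram levels were 180.4 and 160.0 TPM and then 97.6 and 81.9 TPM. Mcm3 was at 140 and 130 TPM and then at 35.8 and 39.4 TPM in shFTO cells. Its shScram levels were 66.9 and 66.0 TPM and then 25.2 and 23.5 TPM. For Pcna and Mcm3 the lower change thus went with a higher MCE level in shFTO cells, not with a lower later level. Among the 11 adipocyte markers, 8 had the lower change in shFTO cells and 1 the higher, with medians of 0.42 and 1.90. The change of Adipoq was 1.44 in shFTO and 5.39 in shScram cells (difference -3.95, adjusted p = 4.5e-05), and that of Pparg was 0.42 and 0.49 (difference -0.07, adjusted p = 0.79). Retnla and Id2 are examples of genes whose fall was not called different, at -3.08 and -3.17 and at -2.86 and -2.68. Basement membrane and integrin genes had 8 of 20 members with the higher change in shFTO cells, and the list medians were 0.87 and 0.43.

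**Figure D5:**
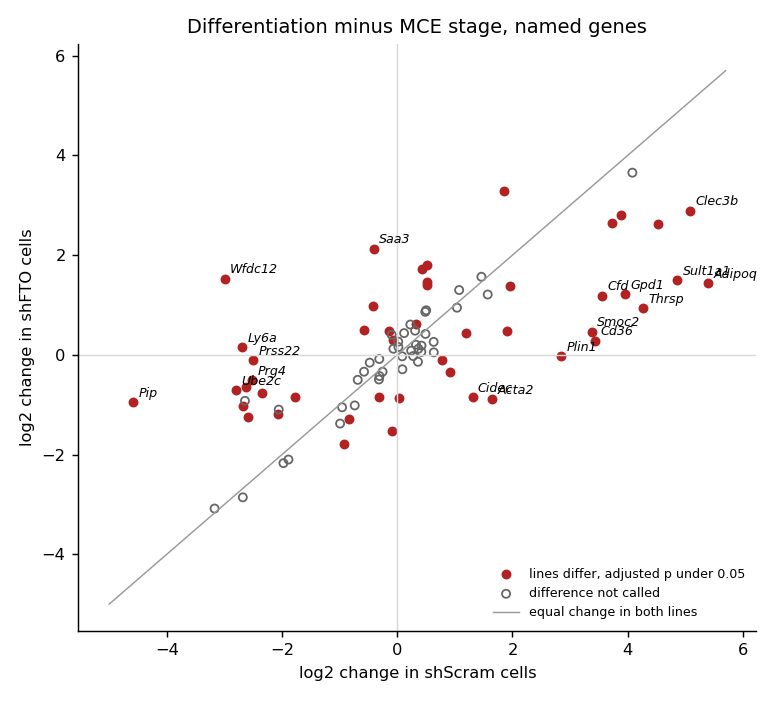
Log2 change from the MCE to the differentiation stage in shFTO cells (vertical axis) against that in shScram cells (horizontal axis) for 89 named genes, with filled red points where the lines differed at an adjusted p under 0.05, open points where they did not, and a line of equal change. Adipoq, Sult1a1 and Cd36 lie far below the line at the right, and Pip, Ly6a and Wfdc12 lie above it at the left.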

How the data were processed

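RNA from 3T3-L1 cells was fragmented, size-selected, poly(A)-tailed and sequenced by the authors. Per the labels and the study's methods, the reads were trimmed with Trim Galore 0.6.5, aligned to GRCm38 with HISAT2 2.1.0 and assembled per gene with StringTie 2.1.4 on Ensembl release 102. The authors deposited the levels used here as TPM, so no count test was run and the read depth was not analysed here. Groups were taken from the sample titles. Gene positions and exon overlaps were looked up by Ensembl ID in GENCODE M21.

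Genes that reached 1 TPM in no fewer than 2 of the 4 libraries were tested on log2(TPM + 1), which understates the change of low genes. limma 3.58.1 in R 4.3.3 was run with a mean per group and a trended prior, two-sided, with Benjamini-Hochberg adjustment over all genes tested. A gene was called at an adjusted p under 0.05. Errors beside log2 changes are limma standard errors, with 2 libraries per stage. Without adjustment, 8195 genes had a p under 0.05. Named genes were the 12 highest and 12 lowest called changes with a mean TPM of at least 5 in the higher stage and without overlap between the stages, key members of each list and up to 3 further called members, and members of marker lists. A few genes that this rule names are not reported here. The members and lists were chosen with earlier results of these data known. Symbols with more than 1 gene ID in the table were left out of the lists. On simulated data for this comparison, with 200 of 14177 genes changed by a log2 of 0.5, 1 or 2, the test called 0, 178 and 200 of them with the right sign, and 0, 7 and 9 unchanged genes. The changed genes were drawn from those with a mean level above 5 TPM on the log2 scale, and no shift in scaling was simulated. With 50.2% of the real genes called, the adjustment was less strict there. The simulated counts therefore do not give the share of real changes that was found. The alternatives covered scaling, pseudocount, filters, the libraries in the fit, the prior, the replicate number as a term and leaving out each library. Python 3.11.15 was used for tables and figures.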

Additional observations from a re-analysis of the deposited data

Results flagged for a closer look

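The late change was compared between the lines for 89 genes, the 24 with the most extreme changes and key members of the lists, and 47 of them differed in the interaction test of the limma fit of 8 libraries (adjusted p under 0.05). Values are the log2 change in shFTO cells minus that in shScram cells. The 24 were chosen by their shScram change, which enters the difference with the opposite sign, so neither the share that differed nor the sign of their differences is set against other genes.

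Among genes that were higher at the differentiation stage in shScram cells, the difference was -3.95 for Adipoq, -3.37 for Sult1a1, -3.33 for Thrsp, -3.15 for Cd36, -2.91 for Smoc2, -2.88 for Plin1, -2.74 for Gpd1, -2.53 for Acta2, -2.36 for Cfd, -2.20 for Clec3b and -2.15 for Cidec. It was -1.89 for Ogn, -1.42 for Lpl, -1.26 for Cpt1a, -1.08 for Ggt5, -1.07 for Itgbl1, -0.89 for Lipe, -0.77 for Col3a1 and -0.57 for Fabp4. The difference was positive for Hp at 1.45, Itga6 at 1.29, Tsc22d3 at 1.28, Pnpla2 at 0.95, Fkbp5 at 0.89 and Cdkn1a at 0.30. The rise of Cdkn1a in shScram cells was not called without any 1 of its 4 libraries (adjusted p between 0.0527 and 0.0798), nor that of Itga6 without 3 of the 4 in turn (adjusted p between 0.0538 and 0.0810), and neither was called after median-ratio scaling (changes of 0.03 and 0.15). The change of Plin1 was 2.85 in shScram and -0.03 in shFTO cells.

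Among genes that were lower in shScram cells, the difference was 4.52 for Wfdc12, 3.64 for Pip, 2.85 for Ly6a, 2.54 for Saa3, 2.40 for Prss22, 2.097 for Ube2c, 2.01 for Prg4, 1.98 for Bub1b, 1.66 for Kif20a, 1.57 for Ccnb1, 1.40 for Dlk1 and 1.33 for Ccn5. It was 1.07 for Cebpa, 0.92 for Mki67 and 0.89 for Ccna2. Fasn at -0.52, Pcna at -0.88 and Pde4d at -0.44 had the negative sign. The starting levels of some of these genes differed between the lines. At the MCE stage Pip was at 1.46 and 0.759 TPM in shFTO cells, against 28.7 and 32.6 TPM in shScram cells. Wfdc12 was at 3.15 and 4.82 against 28.8 and 41.8 TPM, and Prss22 at 2.22 and 3.85 against 8.16 and 6.69 TPM. Pip, Wfdc12 and Prss22 thus started lower in shFTO cells. At the differentiation stage of shFTO cells Wfdc12 was at 14.5 and 11.8 TPM, and Prss22 was at 2.91 and 2.47 TPM. The part of the starting level in these differences was not tested. Saa3, Prg4 and Ccn5 instead started higher in shFTO cells. The lower level of Saa3 in shScram cells was not called without 3 of the 4 libraries in turn (adjusted p between 0.109 and 0.249). The change of Wfdc12 was -2.99 in shScram and 1.52 in shFTO cells, and its exons overlap a gene on the opposite strand.

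Genes not called in shScram cells differed as well, with values of 0.63 for Fn1, 0.36 for Cebpd, -0.90 for Hk2 and -1.44 for Tagln.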

How the results depend on the processing

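Of the 166 named genes called, 164 kept the sign of their change in each of the 14 alternatives that tested them (144 were tested in all 14), and 139 were called with the same sign after median-ratio scaling, quantile normalization and, where tested, rescaling without mitochondrial genes. The number of genes called was 4011 with all 12 libraries in the fit, 3771 with no filter on low values, and between 3804 and 6280 without 1 library. Calls of more than 2-fold numbered 1078 with a mean TPM of at least 5, where fewer genes were tested, and between 1757 and 2253 without 1 library. The difference between the lines was called for 328 genes with all 12 libraries and for 1304 to 2633 without 1 library. Between the 2 shScram preadipocyte libraries the correlation was 0.928. The cause of these changes was otherwise not tested.

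After median-ratio scaling the sign turned for 2 named genes called on the TPM scale, Hspa5 (-0.018) and Igf2bp2 (-0.0088), and for 7 not called there, of which Cdkn1b (-0.27) was called after scaling. After quantile normalization it turned for 0 called and 6 other named genes. With median-ratio scaling the median of 7 lists turned, those of repressors of adipogenesis (-0.23), cAMP-responsive genes (-0.24), fatty acid uptake (-0.051), insulin signalling (-0.041), the citric acid cycle (-0.18), CDK inhibitors (-0.16) and m6A regulators (-0.11, and -0.051 after quantile normalization). Rescaling without mitochondrial genes gives no value for the mitochondrial list. Leaving out 1 library ended the call of 32 named genes, with adjusted p between 0.0507 and 0.258. Replicate numbers gave no clear sign of pairs, with a correlation of deviations between the stages of -0.08 in shScram and 0.14 in shFTO cells. That check cannot show whether replicates of 1 number shared a culture. With a replicate block, 6896 genes were called, 6664 of them also called without it, 1970 passed 2-fold, and the difference between the lines was called for 2214 genes.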

Other observations

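Genes near silence at one stage were listed after their values were seen. Below 1 TPM in both MCE libraries and at 5 TPM or more in both differentiation libraries were 32 genes, and the reverse held for 2, Pip and Prss22. Beside Adipoq, Clec3b, Aldh1a1, Ggt5 and Smoc2, the 32 include Fyb, an adaptor of immune cells, at 0.793 and 0.451 TPM and then at 14.0 and 11.2 TPM. They also hold Adig (adipogenin), at 0.370 and 0 TPM and then 6.79 and 5.28 TPM, and the melanocortin receptor accessory protein Mrap, at 0.0292 and 0.629 TPM and then 5.44 and 5.68 TPM. The metalloproteinase inhibitor Timp4 was at 0.560 and 0.787 TPM and then at 7.92 and 9.76 TPM, and the proteoglycan Fmod was at 0.820 and 0.587 TPM and then at 5.59 and 6.22 TPM. The exons of Fyb and Timp4 overlap those of another gene, so their values are uncertain.

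Among abundant genes, also chosen after their values were seen, the matrix metalloproteinase Mmp2 was at 969 and 863 TPM and then at 2663 and 2607 TPM (log2 change 1.53 ± 0.11 by limma, adjusted p = 6.02e-05). Ecm1, extracellular matrix protein 1, went the other way, at 2729 and 2514 TPM and then at 1062 and 963 TPM (-1.37 ± 0.11, adjusted p = 9.83e-05), and its exons overlap those of a microRNA gene. Mdm2, the ubiquitin ligase of p53, was at 3755 and 3572 TPM and then at 5459 and 6055 TPM (0.65 ± 0.14, adjusted p = 0.00581), and its change of 0.36 after median-ratio scaling was not called. The ferritin gene Fth1 was at 13608 and 14354 TPM and then at 9626 and 9735 TPM (-0.53 ± 0.16, adjusted p = 0.0267), and it was not called without differentiation replicate 1 (adjusted p = 0.0675).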
